A study of Mus musculus with 18 samples.

Results

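Macrophages make cholesterol from acetyl-CoA, take it up with lipoproteins and pass the excess to lipoprotein particles outside the cell, and 33 genes of these routes were followed here in peritoneal macrophages with and without LPS. They were 18 enzymes of cholesterol synthesis, 5 genes that control synthesis through the SREBP transcription factors, 5 genes of efflux and the LXR receptors, and 5 genes of sterol transport and storage. The genes were chosen by name, with earlier results of these data known. A value was found for 29 of them among the 13598 genes with a value in these data. Mvd, Tm7sf2, Nr1h3 and Ch25h were not analysed here, so 16 of the 18 enzymes were measured. All 29 genes had a value in each of the 18 libraries and passed the filter on low values. After 6 h of LPS, 10, 13 and 8 of the 16 measured enzymes were lower in TLR4-WT, the K730R mutant and the K810R mutant, beside 23.9%, 26.5% and 19.7% of all genes tested, while the exporter Abca1 was higher in each genotype. Abcg1, the other exporter, stood at 63.8%, 69.0% and 66.1% of its mock mean in this order and was not called. With the libraries rescaled by medians of ratios, 12, 13 and 7 of the 29 genes were lower in this order. The shares of all genes were then 14.2%, 13.5% and 11.7%. Library 3 of TLR4-WT with LPS and library 3 of TLR4-K730R with LPS stood apart from their groups, and without both the counts of lower enzymes in these genotypes were 12 and 11.

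Macrophages came from wild-type mice (TLR4-WT) and from a pair of mutant lines, TLR4-K730R and TLR4-K810R, and RNA-seq covered 3 mock-treated and 3 LPS-treated libraries of each genotype. In the mutants, made with CRISPR/Cas9 on a C57BL/6 background, the named lysine of the TIR domain of TLR4 is an arginine, coded in exon 3 of Tlr4. The cells were collected from the peritoneal cavity after injection of thioglycolate medium and received either no stimulus or 100 ng/ml LPS for 6 h. The age and sex of the mice are not given in the sources used here, nor whether the libraries of a group came from separate mice, so p-values measure the spread between these libraries, which may be technical. All values are FPKM, a level scaled to transcript length and to the fragments of the library. A gene was given the sum of its first-exon events or that of its last-exon events, whichever was larger.

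As background, the mevalonate part of the pathway turns acetyl-CoA into isoprenoid units, and the sterol part joins them into squalene, closes the rings and trims the product to cholesterol. The enzymes share a control: when membrane sterol is low, SCAP carries the SREBP proteins out of the endoplasmic reticulum for cleavage, and the freed part switches on the genes of the pathway, while INSIG proteins hold SCAP back when sterol is high. Excess sterol, as oxysterols, instead activates the LXR receptors, which raise the exporters ABCA1 and ABCG1. In macrophages the balance of these arms sets how much cholesterol the cell stores, which is best known from foam cells.

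The promoters of 27 of the 33 genes were found in RefSeq (GRCm38.p6). The 250 bases before the transcription start were searched on either strand for TCACNCCAC, the core of a sterol regulatory element. They were also searched for CCAAT, the letters that NF-Y binds beside many such elements. The third string was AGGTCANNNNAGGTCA, 1 exact spelling of the direct repeat that LXR binds. CCAAT was found for 14 of 15 synthesis genes in the table and for 7 of the other 12 genes, against 10133 of 27025 genes in all. The sterol element was found for Hmgcs1 alone among the genes followed, against 331 of the 27025 genes, and the LXR letters for none of them, against 4 of the 27025 genes. These exact LXR letters stood in 5 of 32851 windows in all. So rare a string cannot tell whether a window holds an LXR site in another spelling. The windows of 3 enzymes and of Abca1 are shown as examples. Windows of other genes that moved after LPS, such as Lss and Dhcr7, are not shown. Lss held 1 CCAAT match, and Dhcr7 held 2 or 0 depending on the window. Acat2, also not shown, held 0. Capitals mark TCACNCCAC or CCAAT on either strand, and each sequence is read along the strand of the gene.
Hmgcs1, chr13:119690101-119690350, plus strand: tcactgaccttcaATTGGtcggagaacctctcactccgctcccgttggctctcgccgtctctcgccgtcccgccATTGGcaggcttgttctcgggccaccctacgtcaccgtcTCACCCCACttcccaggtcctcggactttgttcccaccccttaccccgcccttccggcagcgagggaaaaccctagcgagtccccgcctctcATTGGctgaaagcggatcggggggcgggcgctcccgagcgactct
Mvk, chr5:114444019-114444268, plus strand: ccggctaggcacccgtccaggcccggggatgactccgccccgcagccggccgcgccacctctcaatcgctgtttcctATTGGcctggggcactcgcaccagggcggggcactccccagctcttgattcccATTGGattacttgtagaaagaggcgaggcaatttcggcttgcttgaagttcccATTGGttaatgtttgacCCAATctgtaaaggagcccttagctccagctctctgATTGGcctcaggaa
Nsdhl, chrX:72918271-72918520, plus strand: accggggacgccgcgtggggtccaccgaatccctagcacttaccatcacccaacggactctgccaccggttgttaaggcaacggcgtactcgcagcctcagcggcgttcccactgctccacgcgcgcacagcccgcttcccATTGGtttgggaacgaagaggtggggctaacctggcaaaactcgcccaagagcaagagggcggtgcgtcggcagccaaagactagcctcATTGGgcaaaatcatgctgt
Abca1, chr4:53159896-53160145, minus strand: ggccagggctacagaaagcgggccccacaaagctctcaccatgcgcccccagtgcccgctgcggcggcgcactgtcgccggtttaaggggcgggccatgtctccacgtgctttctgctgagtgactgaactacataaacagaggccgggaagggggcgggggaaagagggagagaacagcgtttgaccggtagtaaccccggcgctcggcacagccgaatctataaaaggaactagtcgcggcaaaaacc
Hmgcs1 held 1 sterol element and 3 CCAAT matches, Mvk 5 CCAAT matches, Nsdhl 2 and Abca1 none. A match is a description of these letters and not of a bound site, and the missing matches say only that these letters are not in these windows.

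Each library listed 80071 to 90401 transcript events, and its depth is unknown because no counts come with the FPKM. Tlr4, the mutated gene, was at 9.31 to 14.2 FPKM in the 9 mock libraries and at 4.18 to 5.72 FPKM in the 9 libraries with LPS. Of 8 macrophage markers 7 had values, and their summed level was 11658 to 14810 FPKM in mock libraries and 7295 to 10062 FPKM with LPS, of which Lyz2 made up 81.5% to 91.8%. In TLR4-WT, Csf1r also fell with LPS, from a mean of 505 to 345 FPKM, Cd68 from 671 to 394, Mertk from 25.6 to 12.8 and Mrc1 from 26.9 to 6.22. Fcgr1 and Adgre1 did not follow the sum: in TLR4-WT Fcgr1 went from 50.1 to 318 FPKM and Adgre1 was at 220.4 and 222 FPKM. In TLR4-K810R Adgre1 went from 171 to 247 FPKM. Neutrophil markers summed to 24.6 to 47.3 FPKM in mock libraries and 167 to 239 FPKM with LPS, nearly all of it S100a8. Of the other neutrophil markers, Ly6g and Mpo were at 0 in all TLR4-WT libraries and reached at most 0.644 and 0.610 FPKM in the mutants, Retnlg was at 1.1 to 2.67 FPKM in TLR4-WT mock libraries and at 0 there with LPS, and S100a9 was at 1.63 to 2.23 FPKM in TLR4-K810R with LPS against at most 0.220 FPKM in TLR4-WT with LPS. Among mock libraries the summed markers of mesothelium and fibroblasts were at 16.1 to 29.5 FPKM in TLR4-WT, 35.7 to 41.0 in TLR4-K730R and 66.4 to 175 in TLR4-K810R, and those of intestinal epithelium at 3.04 to 3.28, 14.6 to 52.4 and 25.4 to 84.8 FPKM. The lung genes reached 24.5 and 34.2 FPKM in TLR4-K810R LPS libraries 2 and 3 and stayed at or below 3.94 FPKM in the other 16 libraries. B cell markers reached at most 3.66 FPKM in sum, T cell markers 0.958, mast cell markers 4.18 and adipocyte markers 0.428. Hepatocyte markers summed to 0 FPKM in TLR4-WT mock libraries, 6.66 to 9.01 in those of TLR4-K730R and 6.34 to 13.9 in those of TLR4-K810R. With LPS their sums were 0 to 9.66, 5.80 to 9.23 and 0 to 3.20 FPKM in this order of genotypes. The part of such cells in the values below was not tested, and in bulk RNA fewer cells of a type and less RNA per cell cannot be told apart.

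With LPS, 2 libraries stood apart from their labelled groups over all genes. The log2 levels of the 9707 genes tested were centred on the 9 LPS libraries and correlated between libraries, as a description across genes, which are not independent replicates. The library labelled TLR4-K730R LPS 3 had r of -0.10 and -0.16 with libraries 1 and 2 of its own group, and r of 0.11 and 0.26 with TLR4-WT LPS libraries 1 and 2. The library labelled TLR4-WT LPS 3 had r of -0.09 and -0.22 with the other libraries of its group, and r of -0.12 and -0.07 with TLR4-K730R LPS libraries 1 and 2. Within groups the other LPS pairs had r of 0.07 to 0.21. Among mock libraries the TLR4-K730R pairs also had r below 0, of -0.02, -0.10 and -0.03, against 0.07 to 0.18 within the other genotypes. The macrophage markers Fcgr1 and Mertk, picked here after their values were seen, crossed between the LPS groups of TLR4-WT and TLR4-K730R. Fcgr1 was at 314, 412 and 228 FPKM in TLR4-WT LPS libraries 1 to 3 and at 196, 160 and 378 FPKM in those of TLR4-K730R. Mertk was at 15.9, 14.0 and 8.65 and at 7.12, 6.18 and 13.5 FPKM. The cause was not tested and the labels were kept. Results that involve these groups are also given without both libraries, a choice made after their values were seen, so that calls gained in this way are a description and no independent support.

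In TLR4-WT macrophages, 15 of the 29 genes were lower after LPS and 2 were higher at an adjusted p below 0.01 in limma, the threshold of the study. Among all 9707 genes tested, 23.9% were lower and 10.4% higher. Of the 16 synthesis enzymes 10 fell and none rose, and their median log2 difference was -0.87 against -0.28 over all genes tested. Values in FPKM are per length, and fold changes are differences of log2(FPKM + 1), which understates the change of low genes. With the libraries rescaled by medians of ratios, the median over all genes moved to -0.01 and that of the enzymes to -0.56, and 12 of the 29 genes remained lower by this test, beside 14.2% of all genes. The share of all called genes that were lower then went from 69.6% to 47.8%. Relative to all genes the enzymes thus stood 0.59 lower without this rescaling and 0.55 lower with it.

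Of the 6 mevalonate enzymes with values, 3 fell in TLR4-WT macrophages. Hmgcs1, the HMG-CoA synthase (chr13:119690379-119708260 in GRCm38), was at 30.0, 29.3 and 25.6 FPKM in mock libraries 1 to 3 and at 11.8, 9.14 and 13.9 FPKM with LPS. The groups did not overlap, and Hmgcs1 fell by 1.23 on the log2 scale (SE 0.15, adjusted p = 6.08e-06). Mvk, the mevalonate kinase, was at 17.3, 12.5 and 19.7 FPKM and then at 5.48, 4.63 and 6.75 FPKM, and it fell by 1.39 (SE 0.18, adjusted p = 1.41e-05), or by 0.88 on last-exon events alone (adjusted p = 0.00322). Pmvk, the next kinase of the pathway, went from a mean of 15.0 ± 1.72 FPKM (SD, n = 3) to 9.43 ± 2.15 FPKM, and this fall was no longer called after rescaling, nor without mock library 1 or 3 or LPS library 1 or 2. Acat2, the thiolase of the first step, Idi1, the isomerase of the isoprenoid units, and Fdps, the farnesyl diphosphate synthase, did not pass the test, with log2 differences of -0.20, -0.82 and -1.05. For Fdps the TLR4-WT LPS libraries were at 12.9, 11.1 and 30.0 FPKM, so that library 3 lay within the range of the mock libraries.

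Of the 10 enzymes of the sterol part with values, 7 fell in TLR4-WT macrophages. Dhcr7, the reductase of the last step of one branch (chr7:143823145-143848410), had the largest difference of the 29 genes: it was at 26.3, 19.5 and 50.8 FPKM in mock libraries and at 3.81, 2.11 and 3.89 FPKM with LPS. It fell by 2.88 on the log2 scale (SE 0.32, adjusted p = 2.49e-06). On last-exon events alone the difference was -3.02 and missed the threshold, at an adjusted p of 0.0108. Sqle, the squalene epoxidase (chr15:59315077-59331192), was at 21, 22.4 and 19.3 FPKM and then at 6.73, 5.51 and 9.16 FPKM, and it fell by 1.45 (SE 0.15, adjusted p = 9.33e-07). Lss, which closes the sterol rings, was at 9.08, 8.40 and 9.29 FPKM and then at 2.97, 1.87 and 3.76 FPKM, and it fell by 1.39. For both genes the mock and LPS libraries were far apart compared with their spread.

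Sc5d, the sterol desaturase, fell by 1.30, Cyp51, the lanosterol demethylase, by 0.87, Ebp, the sterol isomerase, by 0.87 and Nsdhl, a sterol dehydrogenase, by 0.65. The call of Nsdhl was lost after rescaling and without mock or LPS library 2. Ebp was at 21.5, 21.6 and 23.8 FPKM against 11.7, 11.0 and 12.6 FPKM. Fdft1, the squalene synthase, Msmo1, the methylsterol oxidase, and Hsd17b7, a sterol ketone reductase, did not pass the test, with log2 differences of -0.50, -0.32 and -0.34. Among the LPS libraries of TLR4-WT, library 2 was the lowest of the 3 for 14 of the 16 enzymes and library 3 the highest for 14. The summed FPKM of the 16 enzymes was 239, 234 and 278 in mock libraries and 107, 85.9 and 146 with LPS.

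**Figure D1:**
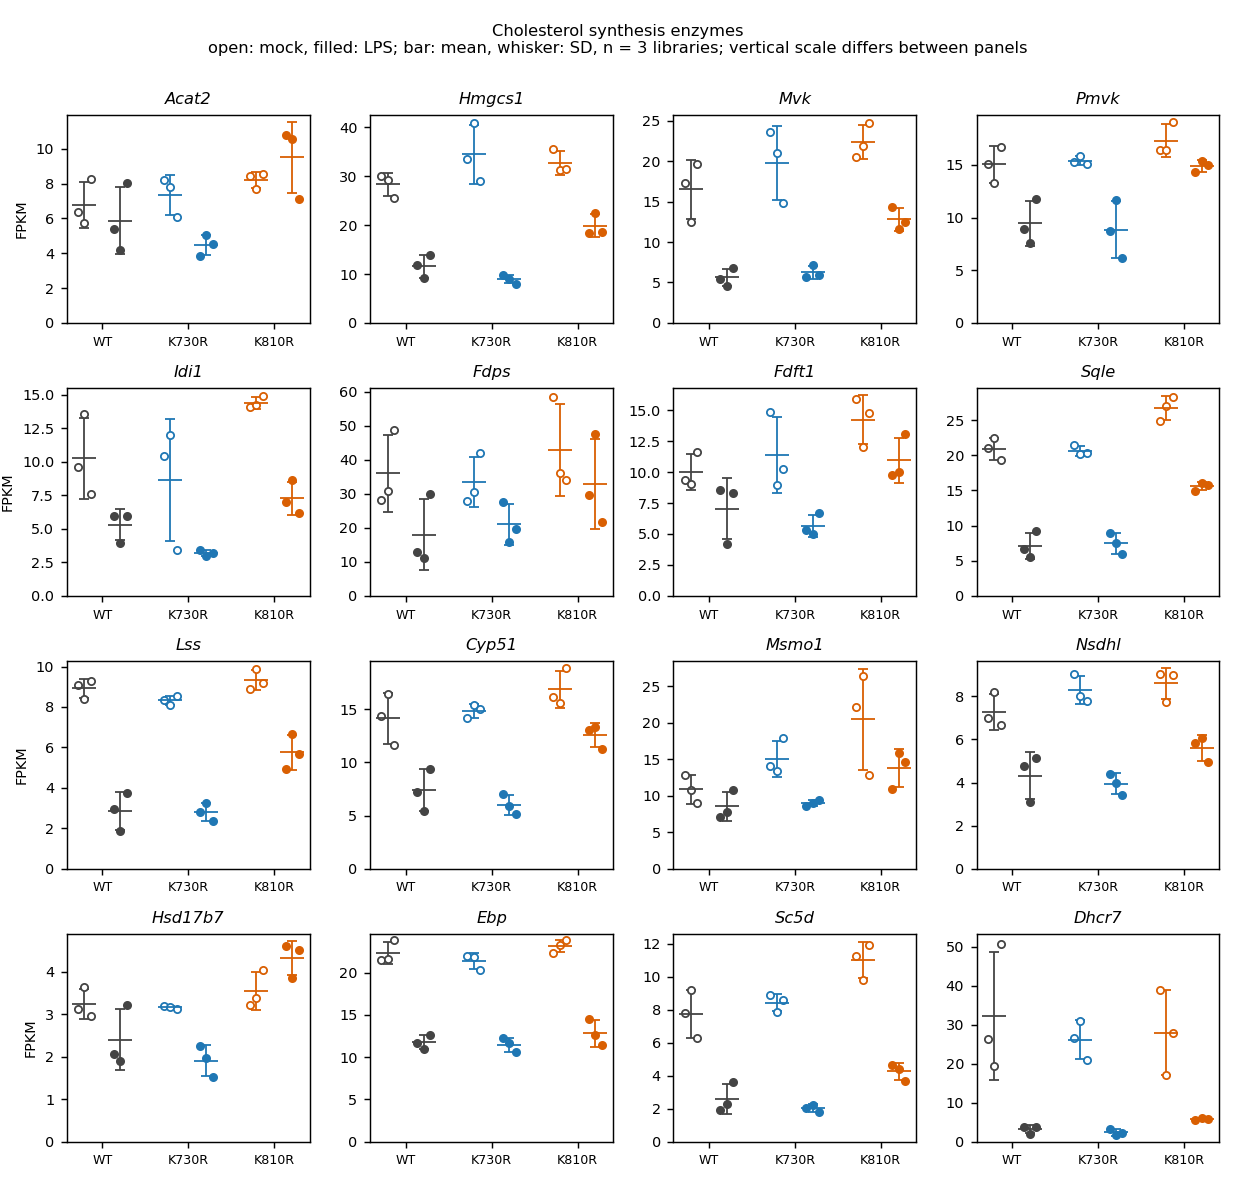
FPKM of the 16 measured cholesterol synthesis enzymes in every library, with TLR4-WT in grey, TLR4-K730R in blue and TLR4-K810R in orange, open points for mock and filled points for LPS, and the mean and SD of 3 libraries as a bar and whisker. For Sqle the LPS libraries of TLR4-WT and TLR4-K730R lie between 5.51 and 9.16 FPKM and those of TLR4-K810R between 15.0 and 16.0 FPKM.

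Of the 5 genes that control the pathway, 3 fell in TLR4-WT macrophages. Srebf2, which codes for SREBP-2, the main activator of the synthesis genes, was at 48.9, 46.4 and 55.9 FPKM in TLR4-WT mock libraries and at 22.2, 20.6 and 30.1 FPKM with LPS, and it fell by 1.04 (SE 0.12, adjusted p = 5.06e-06). Scap, the escort of the SREBP proteins, fell by 1.30, from a mean of 14.0 ± 2.49 to 5.07 ± 1.01 FPKM. Insig1, the sterol-dependent anchor and itself a target of SREBP, was at 44.4, 45.5 and 43.3 FPKM and then at 16.6, 14.2 and 22.2 FPKM, and it fell by 1.30 (adjusted p = 1.09e-06). Insig2, its relative, had a log2 difference of -0.78 and an adjusted p of 0.0130. Srebf1, which codes for the SREBP-1 proteins, had a difference of -0.35 and an adjusted p of 0.252.

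Abca1, the exporter that loads cholesterol onto poor lipoprotein particles (chr4:53030787-53159895), was at 33, 37.4 and 29.5 FPKM in TLR4-WT mock libraries and at 79.7, 79.2 and 74.4 FPKM with LPS. The groups were wide apart, and Abca1 rose by 1.21 on the log2 scale (SE 0.13, adjusted p = 1.22e-06). Abcg1, the exporter to mature particles, did not rise with it: its values were 24.8, 29.1 and 26.8 FPKM and then 20.7, 20.3 and 10.5 FPKM, a difference of -0.67 with an adjusted p of 0.0566. Nr1h2, the LXR-beta receptor, was at 29.2 ± 6.11 and 24.5 ± 7.68 FPKM and did not pass the test. Mylip, an LXR target whose protein sends lipoprotein receptors to degradation, was at 11.0 ± 1.05 and 8.69 ± 0.994 FPKM with an adjusted p of 0.0346.

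The genes of the lysosomal exit of cholesterol moved in opposite directions. Npc1, the membrane protein of this exit, was at 96.6, 99.5 and 78.4 FPKM in TLR4-WT mock libraries and at 26.9, 31.9 and 32.3 FPKM with LPS, and it fell by 1.56 (SE 0.13, adjusted p = 1.25e-07). Npc2, its soluble partner and the gene with the highest level of the 29, was at 517, 317 and 525 FPKM and then at 764, 783 and 687 FPKM, and it rose by 0.75 (SE 0.15, adjusted p = 0.000698). In a fit of the TLR4-WT libraries alone the rise of Npc2 was not called, nor were the falls of Cyp51 (adjusted p = 0.0129), Pmvk and Nsdhl, and the value of Npc2 comes from last-exon events only. Soat1, which esterifies cholesterol for storage, was at 16.0, 19.8 and 16.7 FPKM and then at 4.5, 6.10 and 5.91 FPKM, and it fell by 1.51 (SE 0.38, adjusted p = 0.00398). This fall was not called without TLR4-WT mock library 2 or 3 or LPS library 1, nor after rescaling. Stard4, a cytosolic sterol carrier, was at 1.27, 6.22 and 4.54 FPKM and then at 2.20, 1.35 and 1.71 FPKM, so its groups overlapped.

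**Figure D2:**
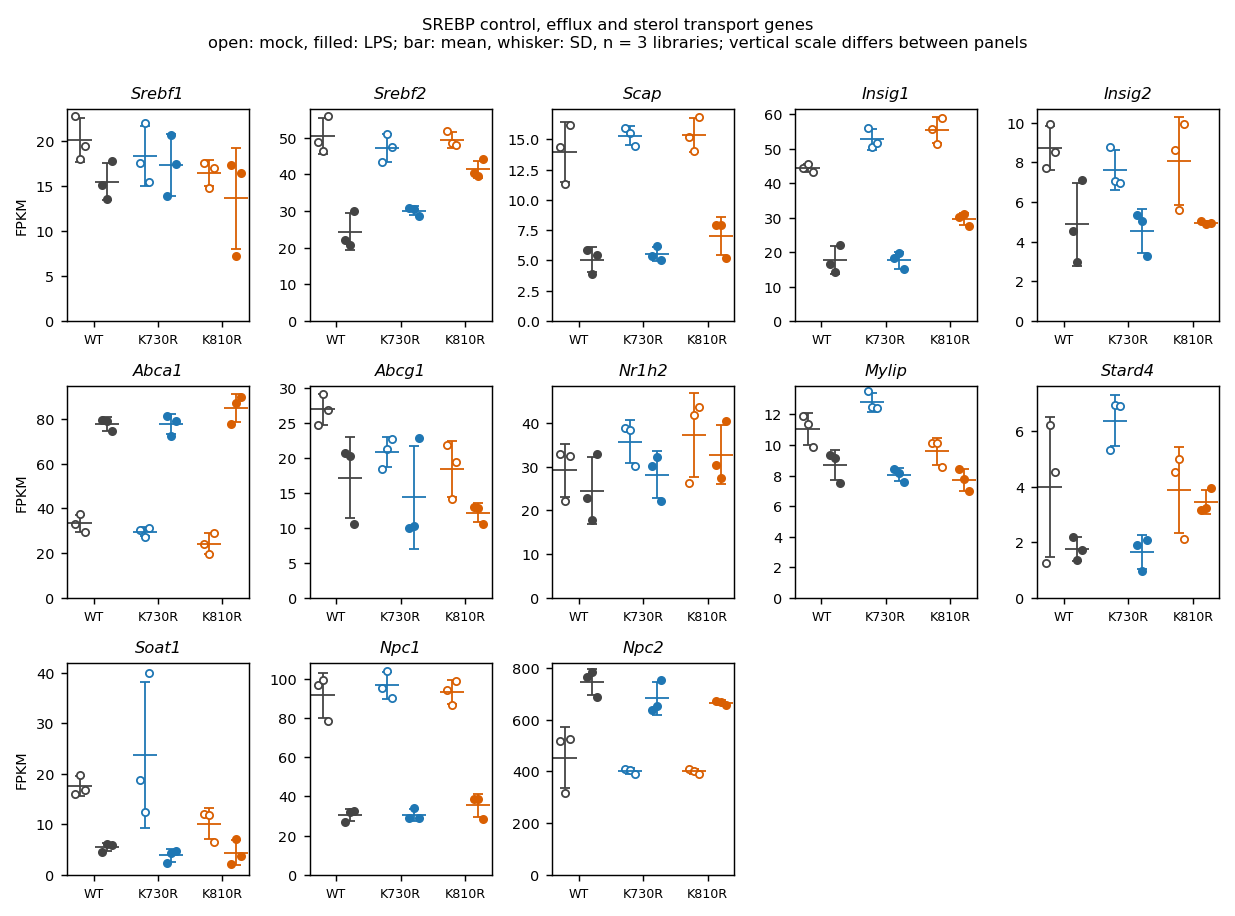
FPKM of the 13 measured genes of SREBP control, efflux and sterol transport in every library, with colours, points and whiskers for genotype, treatment and SD as for the enzymes. In each genotype the 3 LPS libraries of Abca1 lie above its mock libraries, at 72.6 to 89.7 against 19.6 to 37.4 FPKM.

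The same comparison was made within each mutant. In TLR4-K730R macrophages 20 of the 29 genes were lower after LPS and 2 were higher, beside 26.5% and 9.32% of all genes tested. Of the 16 enzymes 13 fell, with a median of -0.98 against -0.36 over all genes, and after rescaling 13 of the 29 genes and 13.5% of all genes were lower, with enzyme and overall medians of -0.64 and -0.04. In TLR4-K810R macrophages 11 of the 29 genes were lower and 2 were higher, beside 19.7% and 9.08% of all genes. Of the 16 enzymes 8 fell, with a median of -0.58 against -0.26, and after rescaling 7 of the 29 genes and 11.7% of all genes were lower, with medians of -0.33 and -0.03. The lower share of called genes in all went from 73.9% to 46.5% in TLR4-K730R and from 68.5% to 48.5% in TLR4-K810R with this rescaling. In each genotype the 2 risen genes were Abca1 and Npc2. Without the 2 libraries that stood apart, 17 of the 29 genes were lower and 2 higher in TLR4-WT, beside 25.1% and 10% of all genes, and 19 were lower and 2 higher in TLR4-K730R, beside 23% and 8.88%. The enzyme medians were then -0.98 and -1.02, against -0.31 and -0.33 over all genes. In TLR4-WT the differences of Fdps, Hsd17b7 and Insig2 were then called and that of Soat1 was not (adjusted p = 0.0112). In TLR4-K730R that of Abcg1 was then called, at -0.96, and those of Idi1 and Hsd17b7 were not.

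Hmgcs1 was at 33.4, 40.8 and 29.0 FPKM in TLR4-K730R mock libraries and at 9.72, 9.06 and 8.03 FPKM with LPS, a fall of 1.82 on the log2 scale (SE 0.15). In TLR4-K810R it was at 35.5, 31.2 and 31.5 FPKM and then at 18.4, 22.5 and 18.6 FPKM, a fall of 0.70 that was not called after rescaling. The LPS libraries of the mutants did not overlap each other for this gene, though these genotypes were not tested against each other. Dhcr7 fell by 3.01 in TLR4-K730R and by 2.02 in TLR4-K810R, with LPS libraries at 3.37, 1.66 and 2.20 and at 5.50, 6.09 and 5.79 FPKM. On last-exon events alone neither difference was called, nor were those of Mvk, at -0.72 and -0.63 (adjusted p of 0.0112 and 0.0282). Sqle fell by 1.36 and 0.74, Mvk by 1.5 and 0.76, Lss by 1.30 and 0.62 and Sc5d by 1.64 and 1.19 in TLR4-K730R and TLR4-K810R in this order. In TLR4-K810R the falls of Mvk, Lss and Nsdhl were not called under rescaling. The fall of Nsdhl was lost in each of the 6 fits that left out 1 TLR4-K810R library, that of Lss in 5 of them and that of Mvk in 4. Without both TLR4-K810R LPS libraries with lung genes, the calls of Hmgcs1, Mvk, Sqle, Lss, Nsdhl and Npc2 were lost, and 6 of the 29 genes were lower and 1 higher, beside 11.1% and 6.06% of all genes in that fit.

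Ebp fell by 0.87, 0.84 and 0.81 in TLR4-WT, TLR4-K730R and TLR4-K810R, with standard errors of 0.10. Scap fell by 1.32 and 1.05, Insig1 by 1.53 and 0.88 and Npc1 by 1.63 and 1.38 in TLR4-K730R and TLR4-K810R. Srebf2 fell by 0.63 in TLR4-K730R, where the call was lost after rescaling, and had a difference of -0.25 in TLR4-K810R with an adjusted p of 0.124. Abca1 rose by 1.36 in TLR4-K730R and by 1.78 in TLR4-K810R. Its mock libraries were at 24.1, 19.6 and 28.9 FPKM in TLR4-K810R and its LPS libraries at 77.8, 87.1 and 89.7 FPKM. Npc2 rose by 0.76 and 0.73. Soat1 fell by 2.23 in TLR4-K730R, from 18.7, 12.4 and 40.1 to 2.33, 4.38 and 4.80 FPKM, and had a difference of -1.12 in TLR4-K810R (adjusted p = 0.0272). Idi1, Fdft1, Hsd17b7, Mylip and Stard4 fell in TLR4-K730R and did not pass the test in the other genotypes, which does not show that the genotypes differ. The calls of Idi1 and Hsd17b7 in TLR4-K730R stood close to the threshold, at adjusted p of 0.0093 and 0.00985. Those of Idi1, Fdft1 and Hsd17b7 were lost without 1 of several single libraries of the group, that of Stard4 without LPS library 2, and all 5 after rescaling.

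**Figure D3:**
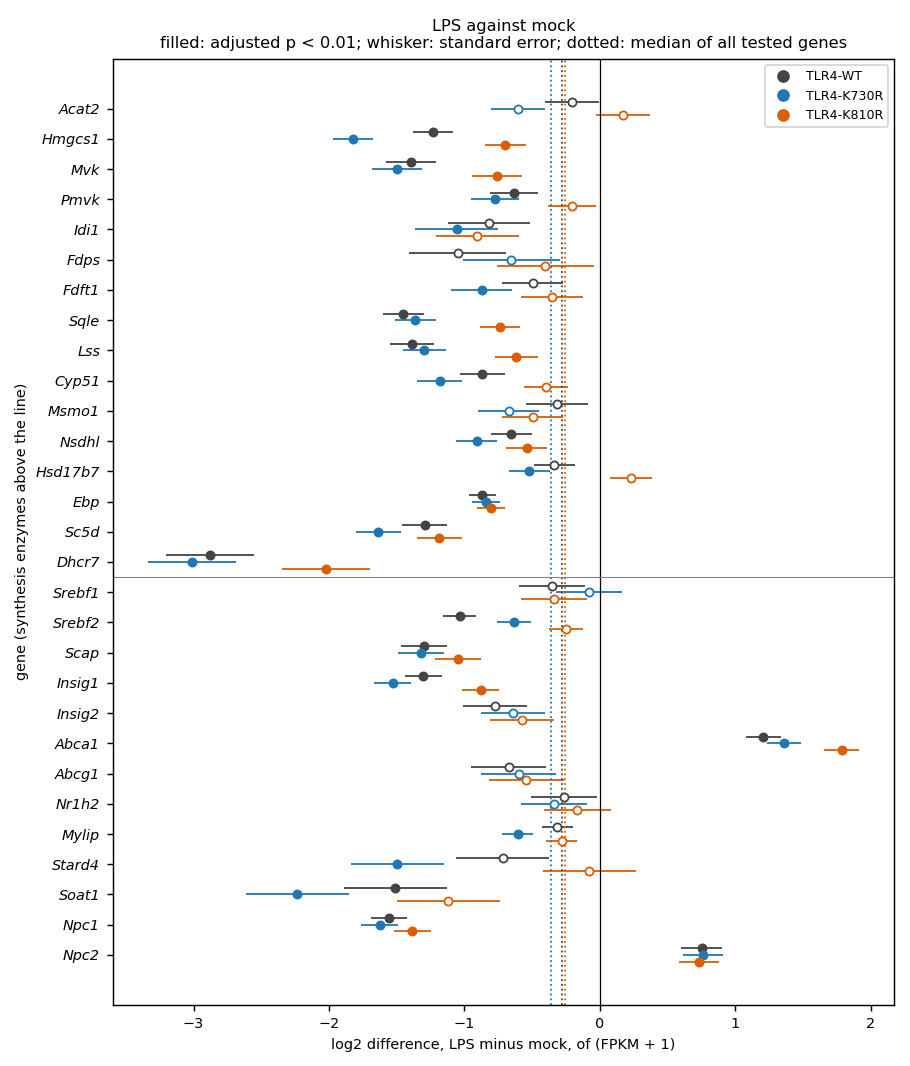
Log2 difference of FPKM + 1, LPS minus mock, of the 29 genes in TLR4-WT (grey), TLR4-K730R (blue) and TLR4-K810R (orange), with standard errors as whiskers, filled points for an adjusted p below 0.01 and dotted lines for the median of all genes tested. Among the enzymes, 10, 13 and 8 points are filled in this order of genotypes, and Abca1 and Npc2 are the filled points to the right of 0.

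The next question was whether the mutant macrophages differed from TLR4-WT with LPS. The 2 mutants were compared with the same TLR4-WT libraries. In TLR4-K810R all 16 enzymes had higher mean log2 levels than in TLR4-WT, with a median difference of 0.65 against 0.11 over all genes, and 0.53 against -0.02 after rescaling. For 12 of the 16 enzymes, and 15 of the 29 genes, each of the 3 TLR4-K810R libraries was above each TLR4-WT library, where 17.4% of all genes tested were separated in this direction. Npc2 was the 1 gene of the 29 separated the other way, beside 7.89% of all genes. Sqle was the 1 gene called, beside 0.134% of all genes tested, and 17 of the 29 genes, all higher in TLR4-K810R, had an unadjusted p below 0.05, as did 21.8% of all genes.

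Sqle was at 6.73, 5.51 and 9.16 FPKM in TLR4-WT with LPS and at 15.0, 16.0 and 15.8 FPKM in TLR4-K810R, a difference of 1.05 on the log2 scale (SE 0.15, adjusted p = 0.00506). The lowest TLR4-K810R library was well above the highest TLR4-WT library. This call was lost in each of the 5 fits that left out a library of these groups other than TLR4-WT LPS library 3, with adjusted p of 0.0188 to 0.0360, and in a fit of these groups alone, at an adjusted p of 0.130. It was also lost without both TLR4-K810R libraries with lung genes, at a difference of 0.998 and an adjusted p of 0.0838.

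Srebf2 stood next to the threshold: it was at 22.2, 20.6 and 30.1 FPKM in TLR4-WT and at 40.5, 39.7 and 44.1 FPKM in TLR4-K810R, a difference of 0.76 (SE 0.12, adjusted p = 0.0117). Mvk had a difference of 1.07 (adjusted p = 0.0165; 0.70 on last-exon events alone), Insig1 of 0.73 (adjusted p = 0.0176), Lss of 0.83 (adjusted p = 0.0205) and Hmgcs1 of 0.74 (adjusted p = 0.0275). For Insig1 the LPS libraries were at 30.2, 31.0 and 27.7 FPKM in TLR4-K810R and at 16.6, 14.2 and 22.2 FPKM in TLR4-WT. Library 3 of TLR4-WT LPS, the highest of its group for 14 enzymes, bears on these values. Leaving it out must widen the differences of these enzymes, so calls gained in this way are no independent support. Without this library 284 of 9669 genes in all (2.94%) were called, and 9 of the 29 genes. They were Hmgcs1, Mvk, Lss, Cyp51, Hsd17b7, Sc5d, Srebf2 and Insig1 beside Sqle. Without both libraries that stood apart from their groups, 10 of the 29 genes were called, these 9 and Pmvk, beside 5.98% of all genes, and Sqle had a difference of 1.23 (adjusted p = 3.4e-05) and Srebf2 of 0.92 (adjusted p = 0.000157). Ebp and Nsdhl differed least among the enzymes, by 0.11 and 0.33 (adjusted p of 0.563 and 0.219).

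None of the genes of efflux, transport and storage was called in this comparison. Abca1 was at 84.9 ± 6.26 against 77.8 ± 2.92 FPKM, a difference of 0.12 (SE 0.13). Stard4, the 1 of these genes separated higher, was at 3.16, 3.25 and 3.97 against 2.20, 1.35 and 1.71 FPKM (adjusted p = 0.250). Npc1 was at 35.4 ± 5.84 against 30.3 ± 3.03 FPKM, and Npc2 at 674, 668 and 656 against 764, 783 and 687 FPKM. In these LPS libraries the summed markers of mesothelium and fibroblasts were 62.7 to 74.3 FPKM in TLR4-K810R and 25.9 to 89.0 FPKM in TLR4-WT, and those of macrophages 9103 to 10062 against 7295 to 9471 FPKM, and their part in the differences was not tested.

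TLR4-K730R macrophages with LPS were compared in the same way. None of the 29 genes, and 0% of all genes tested, was called against TLR4-WT in limma, and 2 of the 29 genes had an unadjusted p below 0.05, beside 7.69% of all genes. The enzymes had a median difference of -0.16 against -0.04 over all genes, which went to -0.01 without TLR4-WT LPS library 3, -0.06 without TLR4-K730R LPS library 3 and -0.27 without TLR4-WT LPS library 2. Of the 29 genes Idi1 was separated lower and 0 higher, beside 7.54% and 3.32% of all genes. Sqle was at 8.92, 7.58 and 5.98 FPKM, and Lss at 2.80, 3.27 and 2.37 FPKM, all within the range of TLR4-WT. Without both library 3 of TLR4-WT and library 3 of TLR4-K730R, 1.66% of all genes were called and 1 of the 29, Abcg1, with a difference of -0.95 (adjusted p = 0.0087), and the enzyme median was 0.06 against 0.01 over all genes. The values of this comparison and of TLR4-K810R against TLR4-WT stand side by side only, since they share the TLR4-WT libraries.

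**Figure D4:**
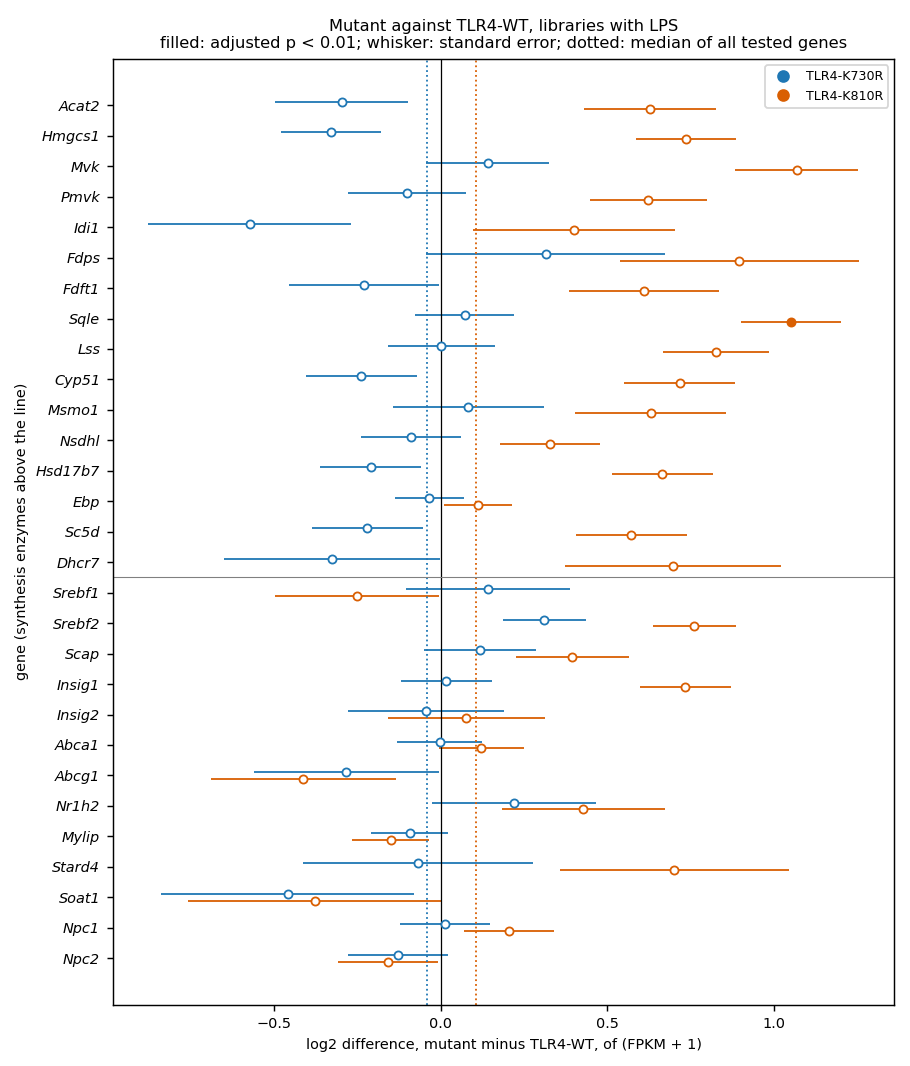
Log2 difference of FPKM + 1 between mutant and TLR4-WT libraries with LPS for the 29 genes, with TLR4-K730R in blue and TLR4-K810R in orange, standard errors as whiskers, a filled point for an adjusted p below 0.01 and dotted lines for the medians of all genes tested. The orange points of all 16 enzymes lie to the right of 0 and that of Sqle is the 1 filled point.

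Without LPS, none of the 29 genes was called in either mutant against TLR4-WT in limma, beside 0.268% (TLR4-K730R) and 1.58% (TLR4-K810R) of all genes. At an unadjusted p below 0.05 none passed for the first mutant and 6 for the second, 5 of them higher, beside 7.7% and 14.1% of all genes. In TLR4-K730R, 3 of the 29 genes were separated higher and 1 lower, beside 8.91% and 7.45% of all genes. The enzyme median was 0.06 against 0.03 over all genes for TLR4-K730R and 0.25 against 0.07 for TLR4-K810R, and after rescaling 0.04 against 0.01 and 0.15 against -0.01. In TLR4-K810R, 6 of the 16 enzymes were separated from TLR4-WT, all of them higher, and over all 29 genes 7 were separated higher and 4 lower, beside 14.2% and 6.64% of all genes. Sqle was at 24.8, 26.9 and 28.2 FPKM in TLR4-K810R against 21, 22.4 and 19.3 FPKM (adjusted p = 0.323), and Idi1 at 14.1, 14.2 and 14.9 against 9.65, 13.6 and 7.60 FPKM. Abca1 was lower in TLR4-K810R, at 24.2 ± 4.64 against 33.3 ± 3.95 FPKM, a difference of -0.46 that missed the threshold (adjusted p = 0.0656). The fibroblast, intestinal and hepatocyte marker sums of the mock libraries of both mutants lay above those of TLR4-WT, and their part in these differences was not tested.

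The LPS responses themselves were then compared. No gene of the 29 had an LPS response that differed from that of TLR4-WT in limma, beside 0.0412% (TLR4-K730R) and 0.124% (TLR4-K810R) of all genes, and 2 and 8 of the 29 genes had an unadjusted p below 0.05, beside 7.02% and 13.2% of all genes. For TLR4-K810R the enzyme median of this difference was 0.45 against 0.04 over all genes, with 14 of 16 enzymes above 0. It was 0.41 against 0.00 after rescaling and 0.30 without TLR4-WT LPS library 2. On last-exon events alone the enzyme median was 0.16, over fewer enzymes. Fdps, Pmvk and Idi1 had too little last-exon signal to be tested there. For TLR4-K730R it was -0.21 against -0.06, with 12 of 16 enzymes below 0, and it moved to -0.08 without TLR4-WT LPS library 3 and to -0.37 without library 2. Srebf2 came closest in TLR4-K810R, with a difference of 0.79 (SE 0.18, adjusted p = 0.0585), before Lss at 0.77 (adjusted p = 0.153) and Sqle at 0.71 (adjusted p = 0.157). Without both libraries that stood apart, the responses of Srebf2 (0.94, adjusted p = 0.00263) and Sqle (0.89, adjusted p = 0.00549) were called in TLR4-K810R, beside 1.17% of all genes, and none of the 29 in TLR4-K730R, beside 0.3%, where the enzyme median was -0.02.

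Synthesis and efflux were set against each other in each library as the mean log2(FPKM + 1) of the 16 measured enzymes minus that of Abca1 and Abcg1, as a description without a test. In TLR4-WT mock libraries this score was -1.10, -1.30 and -1.01, and with LPS -2.59, -2.86 and -1.75. In TLR4-K730R it was -0.70, -0.75 and -1.04 and then -2.13, -2.15 and -2.86. In TLR4-K810R it was -0.43, -0.13 and -0.53 and then -1.59, -1.55 and -1.63. Within each genotype all LPS libraries lay below all mock libraries.

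The mean change of the score was -1.26, -1.55 and -1.23 in this order of genotypes, and the TLR4-K810R libraries lay above those of the other genotypes both with and without LPS. The parts of the score moved differently. The enzyme mean went from 3.81 ± 0.04 to 2.82 ± 0.31 in TLR4-WT, from 3.86 ± 0.10 to 2.69 ± 0.10 in TLR4-K730R and from 4.09 ± 0.07 to 3.48 ± 0.09 in TLR4-K810R (SD, n = 3 libraries). The exporter mean went from 4.95 ± 0.12 to 5.21 ± 0.29, from 4.69 ± 0.09 to 5.07 ± 0.33 and from 4.45 ± 0.27 to 5.07 ± 0.06. Abcg1 was at 10.5 FPKM in TLR4-WT LPS library 3 and at 22.8 FPKM in TLR4-K730R LPS library 3, against 20.7 and 20.3 FPKM and 9.99 and 10.3 FPKM in the other LPS libraries of these groups. These are the 2 libraries in which Fcgr1 and Mertk also stood apart, and without both the mean change of the score was -1.58 in TLR4-WT and -1.31 in TLR4-K730R, which turns the order of these genotypes.

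**Figure D5:**
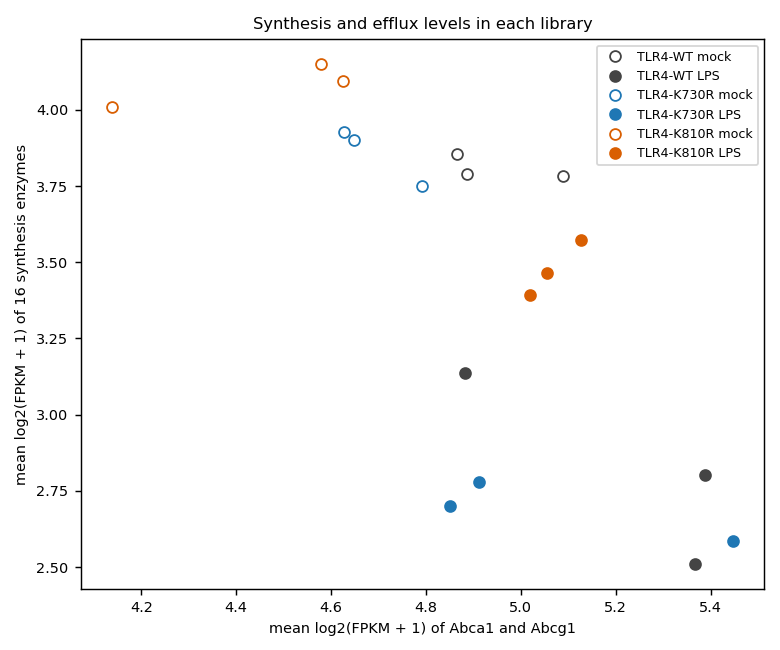
Mean log2(FPKM + 1) of the 16 measured synthesis enzymes against that of Abca1 and Abcg1 in each of the 18 libraries, with TLR4-WT in grey, TLR4-K730R in blue, TLR4-K810R in orange, open points for mock and filled points for LPS. The LPS libraries of TLR4-K810R lie at enzyme means of 3.39 to 3.57, above the 2.51 to 3.14 of TLR4-WT and the 2.59 to 2.78 of TLR4-K730R with LPS.

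First-exon events also separate the promoters of Srebf1. An upstream first exon (chr11:60220453-60220604, minus strand), which starts the SREBP-1a form, held 49.3% to 99.2% of the first-exon FPKM of the gene. The downstream one (chr11:60210336-60210465), which starts the SREBP-1c form that LXR is known to raise, held the rest, at 0.0922 to 7.50 FPKM. In TLR4-WT the downstream exon was at 2.96, 0.715 and 4.68 FPKM in mock libraries and at 0.993, 1.5 and 1.60 FPKM with LPS. These groups overlapped, as did those of TLR4-K810R. In TLR4-K730R they did not, at 2.30, 2.54 and 7.50 FPKM in mock libraries and 0.222, 0.855 and 1.37 FPKM with LPS, and the difference was not tested. For Fdft1 and Npc2 the files list last-exon events only, and for 18 of the 29 genes the sums of both ends lay within 1.1 times of each other.

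Lists of related pathways, written from general knowledge with earlier results of these data known, were read from the same fit. Of 10 tested genes of fatty acid synthesis, which SREBP proteins also drive, 5 fell after LPS in TLR4-WT and in the K730R mutant and 3 in the K810R mutant, and none rose, where 23.9%, 26.5% and 19.7% of all genes were lower. Fads1, a fatty acid desaturase, fell by 1.89, 1.94 and 1.32 in this order of genotypes and Elovl5, an elongase, by 1.74, 2.01 and 1.51. Fasn, the fatty acid synthase, fell by 1.12 and 1.36 in TLR4-WT and TLR4-K730R and had a difference of -0.78 in TLR4-K810R that did not pass the test. With LPS all 10 were higher in mean log2 level in TLR4-K810R than in TLR4-WT and 5 were separated, beside 17.4% of all genes, with a median of 0.34 against 0.11 over all genes, and none was called.

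Among 8 tested genes of lipoprotein uptake and hydrolysis, the scavenger receptors Olr1 and Msr1 rose in every genotype, Olr1 by 3.04, 3.25 and 2.71 and Msr1 by 1.82, 1.88 and 1.73. Lipa, the lysosomal lipase that frees cholesterol from its esters, fell by 2.55, 2.75 and 2.63, from 561 ± 52.9 to 94.4 ± 3.65 FPKM in TLR4-WT. Nceh1, a hydrolase of cholesteryl esters, fell by 2.50, 2.87 and 2.47. In all, 5 genes of this list fell in TLR4-WT and in the K730R mutant, and 3 in the K810R mutant, beside the same 23.9%, 26.5% and 19.7% of all genes.

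Of 10 tested sterol carriers and oxysterol enzymes, 4 fell in each genotype, beside 23.9%, 26.5% and 19.7% of all genes. Cyp27a1, which makes an oxysterol, fell by 2.51, 2.37 and 2.94, and Osbpl8, an oxysterol binding protein, by 1.57, 1.51 and 1.46. Stard3, a late endosomal sterol carrier, rose by 0.83, 0.86 and 0.82. Cyp7b1, which hydroxylates oxysterols further, rose by 0.96 in TLR4-WT and had differences of 0.57 and 0.15 in the mutants that did not pass the test. Of 6 tested genes of SREBP processing and degradation, March6, a ubiquitin ligase of the endoplasmic reticulum, fell in each genotype, by 1.16, 1.11 and 1.04, and 2, 3 and 2 genes of this list fell in all, against the same shares of all genes. Rnf145, another ubiquitin ligase, rose by 0.52 in TLR4-WT, from 8.52 ± 0.586 to 12.7 ± 1.12 FPKM, and was the 1 gene of the list that rose. Mbtps1, the protease of the first cut of SREBP, fell by 1.34 in TLR4-WT and 1.04 in TLR4-K730R and had a difference of -0.45 in TLR4-K810R that did not pass the test. None of the 7 tested genes of the isoprenoid branch was called after LPS in limma, with 3, 1 and 0 at an unadjusted p below 0.05 in this order of genotypes, beside 54.1%, 55.4% and 48.5% of all genes. Of the 41 genes tested in these lists none was called between a mutant and TLR4-WT in limma, with 3 and 6 at an unadjusted p below 0.05 without LPS and 7 and 10 with LPS for TLR4-K730R and TLR4-K810R. Of all genes 7.7% and 14.1% passed this level without LPS and 7.69% and 21.8% with LPS.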

How the data were processed

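RNA-seq libraries were grouped by the genotype and treatment in their labels. The authors deposited FPKM values per transcript event for each library. The program and aligner are not given in the sources used here, and the coordinates match GRCm38, so genes were placed with GENCODE M21. Of 14138 gene identifiers 14126 matched. Only events overlapping their gene on its own strand were summed, and each gene took the higher of its first-exon and last-exon totals. Tests used limma 3.58.1 (R 4.3.3) on log2(FPKM + 1), a pseudocount of 1, over the 9707 genes that reached 1 FPKM in 3 or more libraries. One fit held the 6 groups, with an intensity trend. Calls were made at an adjusted p (Benjamini-Hochberg) below 0.01. The fit was tested on simulated data. Depth is unknown and no count test was possible. The genes named are the 33 genes of the pathway, Tlr4, called genes of the other lists (the largest changes first) and cell markers by list. Genes and lists were chosen with earlier results of these data known. Figures and tables used Python 3.11.15, pandas 2.3.3 and matplotlib 3.10.9. Replicate numbers did not pair the libraries. The alternatives tried were another pseudocount, filter, scaling, event end, variance model, library weights, replicate block, threshold, choice of libraries in the fit, and each library left out. The fits without 2 libraries were added after seeing the data.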

Additional observations from a re-analysis of the deposited data

How the results depend on the processing

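No called value of the 29 genes changed sign under any alternative, and the change of synthesis minus efflux after LPS stayed between -1.69 and -1.03. A pseudocount of 0.1 gave enzyme medians of -1.14 (TLR4-K730R) and -0.65 (TLR4-K810R), and 2 genes called between TLR4-K810R and TLR4-WT with LPS (16 of 9707 in all). Median-of-ratios scaling left 13 genes lower in TLR4-K730R and 7 in TLR4-K810R, with enzyme medians of -0.64 and -0.33. On first-exon events alone 1 gene was higher in each genotype, since Npc2 has none, and the enzyme medians were -1.06 in TLR4-K730R and -0.66 in TLR4-K810R. On last-exon events alone, with fewer enzymes tested, the median was -0.89 in TLR4-K730R. Between TLR4-K810R and TLR4-WT with LPS, library weights gave 10 called genes (366 of 9707 in all), a threshold of 0.05 gave 8 (213 in all), a fit of only the groups compared gave 0 and a replicate block gave 0. The block left 14, 19 and 9 genes lower after LPS in TLR4-WT, TLR4-K730R and TLR4-K810R, beside 22.3%, 25.1% and 18.6% of all genes. Same-numbered libraries did not deviate together (correlations of -0.32 to 0.10 over 45 pairs). With only the groups compared, 1 gene was higher after LPS in TLR4-WT. Leaving out each library in turn gave 0 to 9 genes called between TLR4-K810R and TLR4-WT with LPS, 0 to 1 differing LPS responses, and enzyme medians of -1.06 to -0.86 in TLR4-K730R and -0.70 to -0.55 in TLR4-K810R. The 9 genes and the 1 response came without TLR4-WT LPS replicate 3. Without both TLR4-K810R LPS libraries with lung genes, an alternative chosen after seeing the data, the lone library was assumed to vary like the others, 6 genes were lower and 1 higher after LPS with an enzyme median of -0.62 (1071 and 586 of 9663 in all, with a median of -0.24), and 0 genes were called against TLR4-WT with LPS (16 in all). Without TLR4-WT LPS library 3 and TLR4-K730R LPS library 3, also chosen after seeing the data, the enzyme median was -1.02 in TLR4-K730R, 1 gene (160 of 9652 in all) differed from TLR4-WT with LPS in TLR4-K730R and 10 (577 in all) in TLR4-K810R, and 2 responses (113 in all) differed in TLR4-K810R. The cause of these shifts was not tested. Depth is unknown, so the limit it sets on low genes such as Hsd17b7 and Stard4 cannot be given.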
